A study of Mus musculus with 24 samples.

Results

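The comparison asked how the transcriptional response of macrophages to 1 h of lipopolysaccharide (LPS) differed between libraries labelled FosKO and libraries labelled LysM-Cre. For each gene the change between 0 h and 1 h was taken within each genotype, and the LysM-Cre change was subtracted from the FosKO change. This number is called the difference in response below. A positive difference means that the gene rose more, or fell less, in the libraries labelled FosKO. Every one of the 13901 genes that passed a filter on low values was included, of 24273 in the table. The 4 groups compared held 12 of the series' 24 libraries, with 3 libraries in each group.

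All cells were bone marrow-derived macrophages (BMDMs) of C57BL/6 mice, grown in medium conditioned by L cells and kept overnight in 1% serum before use. They were left untreated (0 h) or given 100 ng/ml LPS for 1 h. The controls carried LysM-Cre, a Cre gene at the lysozyme locus Lyz2 that is active in myeloid cells, and the FosKO cells carried LysM-Cre with floxed Fos. The series' design text names the controls LysM-Cre alone, whereas the study's text also gives them 1 floxed Fos allele. The replicates are described as biological. Whether they came from separate animals is not stated, so the p-values measure the spread between these libraries, which may be technical.

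LPS is recognised by TLR4, which signals from the plasma membrane through MyD88 and from endosomes through TRIF (Ticam1). The first arm activates NF-kB and the MAP kinases, and ERK signalling induces immediate early genes such as Fos and Egr1. The second arm activates TBK1 and IRF3, which drive Ifnb1. FOS pairs with a JUN protein to form the transcription factor AP-1, and macrophages then balance inflammatory cytokines such as IL-6 and IL-12 against the anti-inflammatory cytokine IL-10.

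The labels were checked first. Fos (chr12:85473890-85477273, plus strand, GRCm38) lay between 11.02 and 11.34 in LysM-Cre and between 12.41 and 12.86 in the libraries labelled FosKO, on the deposited log2 scale and over both times. The floxed gene was therefore higher, not lower, where the label says knockout, with a gap of 1.49 at 0 h and 1.64 at 1 h. At 0.5 h the order was the opposite, with a mean of 13.52 in LysM-Cre and 12.75 in FosKO. At 2 h the means were 9.52 in LysM-Cre and 12.80 in FosKO, the widest gap of the 4 times. The FosKO means varied little over the 4 times, from 12.60 to 12.80. A single value for the whole gene cannot show whether floxed exons were missing. All directions below are those of the labels. Its difference in response was 0.15 (SE 0.12, limma adjusted p 0.905). Lyz2 exceeded its LysM-Cre level in FosKO by 5.17 at 0 h and 4.98 at 1 h, with a difference in response of -0.18.

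Most macrophage markers were high in every library. Adgre1, Csf1r, Cd68 and the main entry of Itgam lay between 14.18 and 15.38 (a second entry of Itgam was far lower). Cd163 was low, at 5.57 to 5.66 in LysM-Cre and 4.28 to 4.76 in FosKO at 0 h, and the linear values of the 13 entries for macrophage markers summed to between 1.80e+05 and 2.13e+05. The 9 neutrophil markers in the table summed to 83.1 to 113 in LysM-Cre and 57.9 to 68.5 in FosKO at 0 h, and to 117 to 155 and 78.0 to 80.0 at 1 h, with Ly6g and Elane near the lowest value in the table. The stromal and endothelial markers summed to 399 to 450 in LysM-Cre and 596 to 950 in FosKO at 0 h, and to 352 to 416 and 525 to 662 at 1 h, with Dcn and Pdgfra below 0. That sum was mostly the endothelial gene Kdr (8.47 to 8.65 in LysM-Cre and 9.11 to 9.82 in FosKO at 0 h). The collagen gene Col1a1 went the other way (3.47 to 3.75 against 2.58 to 3.27), as did Col1a2 (3.09 to 3.60 against 2.82 to 2.97). No marker of another cell type was called in the difference, and the part of those cells in the results was not tested. In bulk samples fewer cells of a type and less RNA per cell cannot be told apart. Values of Rn18s-rs5, an 18S ribosomal RNA gene, lay from 16.86 to 17.00 at 1 h in replicates 2 and 3 of LysM-Cre and in replicate 1 of FosKO, and between 18.57 and 19.39 in the other libraries compared. All 169 genes called below kept the sign of their difference with only the high or only the low 18S libraries at 1 h. The 0 h libraries, which were all high, served both comparisons. The genes were called from these same libraries, so this agreement was largely fixed by the selection and tests nothing about 18S.

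The largest positive differences were those of Ifna2, Ifna1, Ifnb1 and other type I interferons, and Il6 and Il12b also rose more in the libraries labelled FosKO. The growth factors Csf2 and Pgf, the anti-inflammatory cytokine Il10 and the phosphatase Dusp5 went the other way. Of 13901 genes, limma with Benjamini-Hochberg adjustment called 169 (1.22%) at an adjusted p under 0.05. The difference was positive for 68 (0.489%) and negative for 101 (0.727%). A difference of at least 2-fold was called for 23 genes (0.165%), 13 positive and 10 negative. The 13 include Ifna6, Ifna9, Ifna16 and Ifnab, which passed the filter on low values only through FosKO after LPS. Their positive sign was thus largely fixed by the filter. The 1 h response itself was far broader, with 4970 genes (35.8%) called in LysM-Cre and 4534 (32.6%) in FosKO. The median difference over all genes was 0.00, and the median SE was 0.09.

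**Figure D1:**
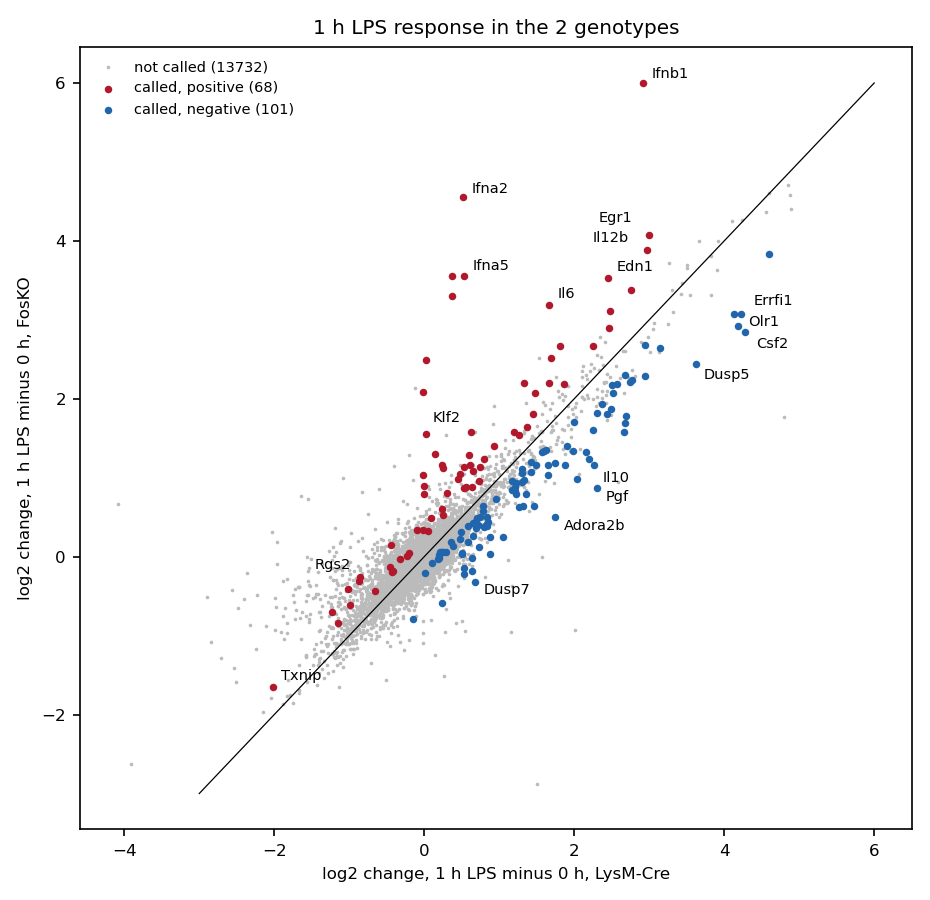
Log2 change after 1 h of LPS in FosKO (vertical axis) against LysM-Cre (horizontal axis) for the 13901 genes tested, with the 68 genes called with a positive difference in red, the 101 called with a negative difference in blue, and the line of equal change in black. Most genes lie along the line, Ifnb1 and Ifna2 stand far above it, and Csf2, Olr1 and Errfi1 lie below it among the strongly induced genes.

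Most called genes were induced in both genotypes and differed in how far. Of the 101 genes with a negative difference, 80 rose in both genotypes, 16 rose in LysM-Cre and were not called in FosKO, 3 rose in LysM-Cre and fell in FosKO, and 2 were not called in LysM-Cre and fell in FosKO. Of the 68 with a positive difference, 40 rose in both genotypes and 13 were called as rising in FosKO and not in LysM-Cre. Of these 13, 6 are interferon genes that passed the filter on low values only through FosKO after LPS, so that their class was largely fixed by the filter. A further 11 fell in both, less so in FosKO, and 4 were called as falling in LysM-Cre and not in FosKO. The negative count was 67 when LysM-Cre replicate 3 at 1 h was left out, and 32 when only the libraries with high 18S were used, where the positive count was 61. In that fit LysM-Cre at 1 h is a single library, assumed to vary like the other groups. Differences stayed close for some genes whose call was lost there, such as Il10 (-1.06), Il27 (0.83) and Ccl7 (-0.73). Named genes that lost it, with the same sign and an adjusted p from 0.056 to 0.746, were Atf4, Bcl2l1, Bcl6, Ccl7, Cish, Csf1, Dusp1, Gadd45b, Gpr132, Gpr84, Hbegf, Icam1, Ifnar1, Il10, Il27, Jdp2, Klf4, Map2k3, Myc, Nfkbia, Nfkbib, P2ry2, Pfkfb3, Plaur, Ptges, Relb, Ticam1, Tnip1 and Txnip. The counts given below for gene lists stand beside the 1.22% called among all genes.

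The type I interferons are secreted antiviral cytokines that signal through a shared receptor, and their genes lie side by side on chromosome 4. Of the family, 11 passed the filter on low values, with differences from 0.80 for Ifna11 to 4.04 for Ifna2, each called. Ifna6, Ifna9, Ifna11, Ifna14, Ifna16 and Ifnab had group means of at most 2.24 in LysM-Cre at every time and passed only through FosKO after LPS. A positive difference of these 6 was thus largely fixed by the filter, and the count is no support for a family-wide direction. Ifnb1, Ifna2, Ifna4, Ifna5 and Ifna1 had higher means in LysM-Cre. At 0 h Ifna1, Ifna2, Ifna4 and Ifna5 each had an SD of 0.02 in LysM-Cre, against 0.09 for Csf2 at a mean of 3.82. Values so even may lie at a floor, which would leave the folds of these alpha genes uncertain. The 11 genes span chr4:88522025-88850656 (GRCm38). Ifna7, Ifna12, Ifna13, Ifna15, Ifne and Ifnk were not tested.

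The RefSeq promoters (GRCm38.p6) of the family were searched for letters known from interferon gene promoters. The letters GAAANNGAAA, where N is any base, are a pair of the core that IRF factors bind, and they were sought on both strands from 250 bases upstream to 50 bases downstream of the start. They were present in 9 of the 11 promoters (81.8%), of which 5 belong to genes that passed only through FosKO, against 4.06% of tested genes with a promoter and 3.44% of all 32851 promoters. The Ifna genes are close copies of each other, so their promoters are not independent of one another. The windows are shown for the promoters of Ifnb1 (chr4:88522871-88522940, minus strand), Ifna2 (chr4:88683904-88684029, minus), Ifna4 (chr4:88841578-88841737, plus) and Ifna5 (chr4:88835330-88835399, plus), which had some of the largest differences. Capitals mark GAAANNGAAA in the Ifna genes and the kappaB letters GGGANNTTCC in Ifnb1, all lying upstream of the start.
Ifnb1: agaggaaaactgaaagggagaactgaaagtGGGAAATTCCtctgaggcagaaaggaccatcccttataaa
Ifna2: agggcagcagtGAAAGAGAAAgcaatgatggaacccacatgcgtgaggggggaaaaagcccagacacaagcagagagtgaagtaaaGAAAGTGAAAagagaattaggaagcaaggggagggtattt
Ifna4: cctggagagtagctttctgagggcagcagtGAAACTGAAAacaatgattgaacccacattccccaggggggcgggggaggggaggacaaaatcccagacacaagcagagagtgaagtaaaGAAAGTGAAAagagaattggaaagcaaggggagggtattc
Ifna5: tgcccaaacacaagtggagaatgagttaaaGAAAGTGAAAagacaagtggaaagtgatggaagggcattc
The GGGANNTTCC letters occur in 1.78% of tested promoters. The 2 interferon promoters without GAAANNGAAA in this window were those of Ifnb1 and Ifna16, which says only that these exact letters were not found there. The motifs were chosen with the values known, and a match is a description of the sequence.

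Ifnb1 encodes interferon beta, the first type I interferon made after TLR4 engagement. In LysM-Cre its values were 6.05, 6.04 and 6.14 before LPS and 9.14, 9.11 and 8.73 after it. The FosKO libraries had 6.10, 6.15 and 6.26 at 0 h, then 12.11, 12.18 and 12.24 at 1 h. The genotypes overlapped at 0 h, and after LPS every FosKO library lay above every LysM-Cre library. The rise was 7.55-fold in LysM-Cre and 64.2-fold in FosKO, a difference of 3.09 (SE 0.18, 95% interval 2.71 to 3.46, limma adjusted p 6.66e-10).

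Ifna2 showed the largest difference of any gene called. Its LysM-Cre values were 3.13, 3.15 and 3.17 at 0 h, then 3.92, 3.58 and 3.49 at 1 h, and its FosKO values were 3.19, 3.18 and 3.17 at 0 h, then 7.47, 7.82 and 7.93 at 1 h. The rise was 1.43-fold in LysM-Cre and 23.6-fold in FosKO (difference 4.04, SE 0.20, adjusted p 8.42e-11). Ifna5 went from 2.92, 2.95 and 2.96 to 3.37, 3.61 and 3.46 in the LysM-Cre libraries, and in FosKO from 2.99, 2.98 and 3.08 to 6.48, 6.58 and 6.65. The groups at 1 h were far apart for both genes, while those at 0 h were nearly level. Ifna1 and Ifna4 had differences of 3.19 and 2.93, Ifna16 of 2.48, Ifna6 of 2.11 and Ifna9 of 1.54.

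Ifna6 was 2.02, 2.03 and 2.05 at 0 h, then 2.01, 2.00 and 2.02 at 1 h in LysM-Cre, against 3.56, 4.39 and 4.46 at 1 h in FosKO. Ifnab, Ifna14 and Ifna11 had the smallest differences of the family, 1.04, 0.91 and 0.80, and the lowest values. The call of Ifna14 was lost without replicate 2 of FosKO at 1 h (0.88, adjusted p 0.0542) and with the 12 libraries alone (adjusted p 0.1295). The coding sequences of the 10 alpha genes are 84.2% to 94.4% identical in pairs, and at most 57.0% identical to that of Ifnb1, so reads can match several alpha genes. Values of single alpha genes are therefore uncertain.

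Of 40 interferon-stimulated genes in a list of antiviral effectors none was called (limma; 2 had an unadjusted p under 0.05), and their median difference was 0.05. All 40 were already higher in FosKO at 0 h, where 35.4% of tested genes were called in either direction. Rsad2, which encodes viperin, had group means of 13.45 and 15.37 at 0 h and of 13.70 and 15.79 at 1 h in LysM-Cre and FosKO, a difference of 0.17 (interval -0.40 to 0.75). Outside that list, Plscr1, which interferons also induce, was called at 0.36 and Slfn2 at -0.38 (limma adjusted p 0.00024 and 0.0389), both named after their values were seen and not run through the alternatives. For Ifit1, an RNA-binding antiviral protein, the difference was 0.67 (adjusted p 0.217), for Ifit2 0.45 and for Isg15 0.05. Of the 8 interferon regulatory factors tested none was called, although 3 had an unadjusted p under 0.05. Irf1 had a difference of -0.39 (adjusted p 0.227), Irf7 of 0.01 (interval -0.37 to 0.38) and Irf3 of 0.06.

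Of 26 members tested of the TLR4 and TBK1 pathway upstream of Ifnb1, 1 was called, against 1.22% of all genes, with the list's median at -0.02. Ticam1, the TRIF adaptor, had a difference of -0.26 (SE 0.04, adjusted p 0.00211). It rose from 9.53, 9.53 and 9.47 to 10.18, 10.20 and 10.22 in the LysM-Cre libraries, and in FosKO from 9.79, 9.79 and 9.77 to 10.17, 10.25 and 10.22, so that the groups met at 1 h. Tlr4 itself differed by 0.09, Tbk1 by -0.03 and Ikbke, which encodes the kinase IKK epsilon, by -0.30 (adjusted p 0.278). The receptor chain gene Ifnar1, named after its values were seen, differed by -0.18 (adjusted p 0.0081, and 0.0675 with the 12 libraries alone).

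**Figure D2:**
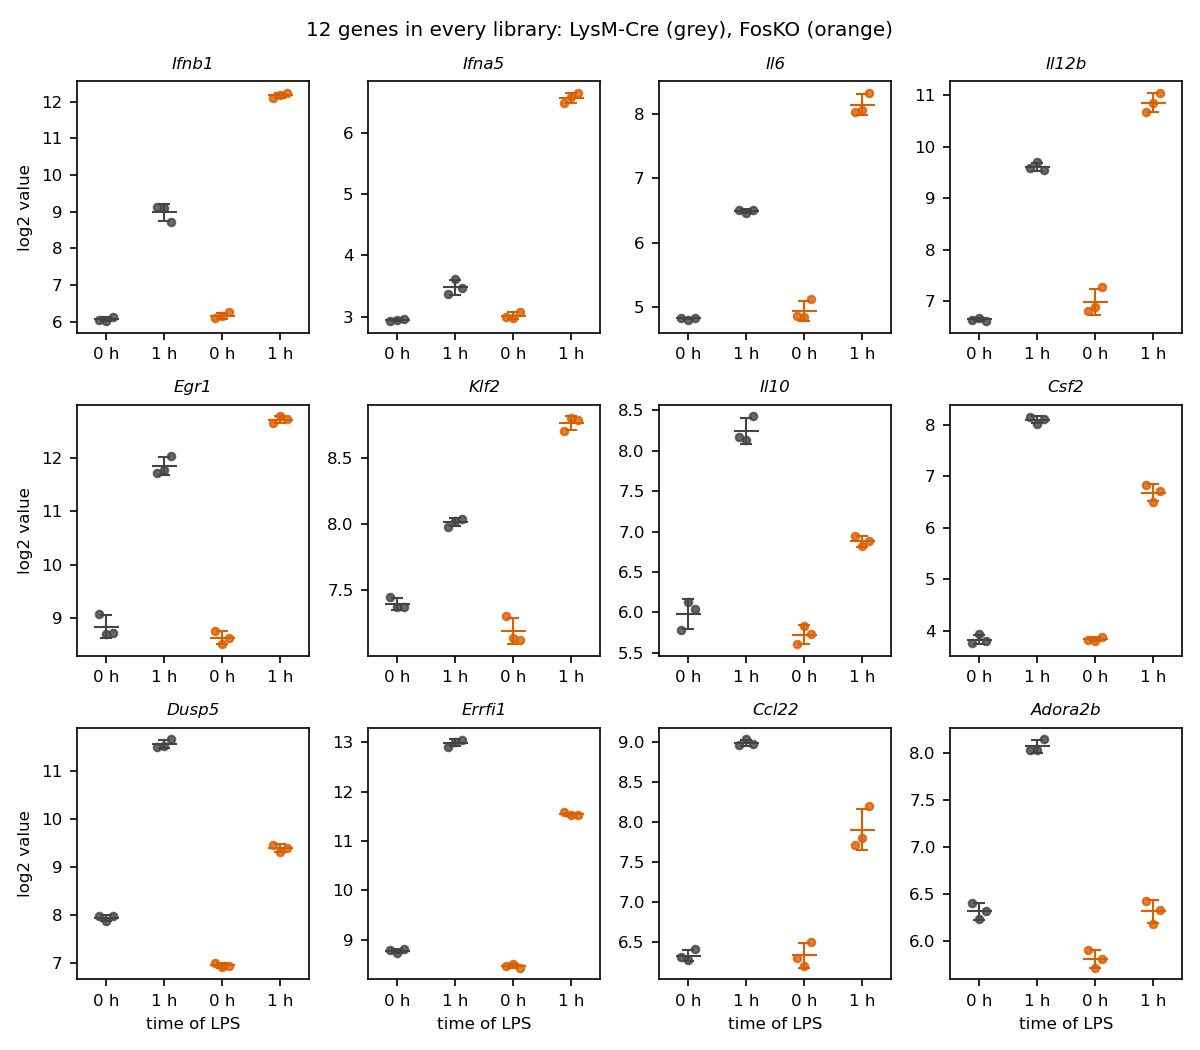
Deposited log2 value of 12 genes in each of the 12 libraries (points) with the mean and SD of the 3 libraries of a group (bars), LysM-Cre in grey and FosKO in orange, at 0 h and 1 h of LPS. Ifnb1, Ifna5, Il6, Il12b, Egr1 and Klf2 reach higher values at 1 h in FosKO, and Il10, Csf2, Dusp5, Errfi1, Ccl22 and Adora2b reach lower ones.

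Among the pro-inflammatory cytokines, 3 of 14 were called with a positive difference and 1 with a negative one, and the list's median was 0.02. Il6, a driver of the acute-phase response, was 4.84, 4.81 and 4.83 at 0 h, then 6.51, 6.45 and 6.50 at 1 h in LysM-Cre. The FosKO libraries had 4.86, 4.84 and 5.12 at 0 h, then 8.03, 8.05 and 8.32 at 1 h. The lowest FosKO library at 1 h lay well above the highest LysM-Cre library, and the rise was 9.15-fold against 3.16-fold (difference 1.53, SE 0.16, adjusted p 7.16e-06).

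Il12b, the p40 subunit of IL-12 and IL-23, was 6.64, 6.68 and 6.61 at 0 h, then 9.59, 9.70 and 9.56 at 1 h in LysM-Cre, and 6.80, 6.88 and 7.27 at 0 h, then 10.68, 10.85 and 11.05 at 1 h in FosKO. Its difference was 0.91 (SE 0.15, adjusted p 0.00176). Il27, a subunit of the cytokine IL-27, differed by 0.82 (adjusted p 0.0277), and this call was lost when any 1 of 8 libraries was left out (0.71 to 0.85, adjusted p 0.0543 to 0.0944). The p35 subunit gene Il12a stayed between 2.04 and 2.24 in the group means and differed by 0.04.

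Csf2, which encodes the growth factor GM-CSF, had the second largest negative difference of any gene called. It was 3.75, 3.93 and 3.79 at 0 h, then 8.16, 8.03 and 8.12 at 1 h in LysM-Cre, against 3.82, 3.80 and 3.88 at 0 h, then 6.82, 6.50 and 6.72 at 1 h in FosKO. The groups overlapped before LPS and not after. The rise was 19.5-fold in LysM-Cre and 7.20-fold in FosKO (difference -1.43, SE 0.18, adjusted p 6.86e-05). The other classical LPS cytokines were not called. Tnf rose 15.1-fold and 15.9-fold (difference 0.07, interval -0.09 to 0.24), Il1a 24.2-fold and 24.3-fold (0.00, -0.19 to 0.20) and Il1b 29.5-fold and 23.9-fold (-0.30, -0.55 to -0.06, adjusted p 0.388).

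The Il6 promoter holds the kappaB letters GGGANNTTCC close to its start, on the plus strand at chr5:30013040-30013109 (GRCm38.p6). The window is shown because Il6 is the cytokine with the largest positive difference outside the interferons, and capitals mark the match. The kappaB letters were present in 2 of 53 promoters of genes with a positive difference (3.77%) and in 4 of 78 with a negative difference (5.13%). The Il6 promoter also holds the AP-1 letters TGANTCA, outside the window shown.
Il6: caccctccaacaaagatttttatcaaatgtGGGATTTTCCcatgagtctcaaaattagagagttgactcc

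Immediate early genes, which ERK and SRF-linked factors induce within minutes, were split. Of 19 tested, 7 were called with a positive and 2 with a negative difference, and the median was 0.14. Egr1, a zinc finger transcription factor, was 9.09, 8.72 and 8.74 before LPS and 11.71, 11.78 and 12.04 at 1 h in LysM-Cre, and 8.77, 8.52 and 8.63 at 0 h, then 12.65, 12.78 and 12.72 at 1 h in FosKO. It overlapped between genotypes before LPS and stood higher in all FosKO libraries after it, with a rise of 7.98-fold against 16.9-fold (difference 1.08, SE 0.14, adjusted p 9.73e-05). At 0.5 h the Egr1 means were 14.28 in LysM-Cre and 14.22 in FosKO, both above the 1 h means of 11.85 and 12.72. Klf2, a factor that restrains macrophage activation, was lower in FosKO at 0 h (-0.21, adjusted p 0.0257) and higher at 1 h, with a difference of 0.96 (adjusted p 4.52e-06).

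Ier2 differed by 0.60, Trib1, a pseudokinase, by 0.53, Egr2 by 0.44, Zfp36 by 0.41 and Btg2 by 0.34. The means of Ier2, Zfp36 and Btg2 were higher at 0.5 h than at 1 h in both genotypes. That of Egr2 was higher at 0.5 h in LysM-Cre only, and that of Trib1 in neither genotype. Egr2 lost its call without any 1 of 6 libraries (0.39 to 0.43, adjusted p 0.0646 to 0.0759), Zfp36 without any 1 of 8 (adjusted p 0.0566 to 0.0949) and Btg2 without any 1 of 10 (adjusted p 0.0599 to 0.147). Myc and Mcl1 went the other way. Myc rose 2.40-fold in LysM-Cre and 1.54-fold in FosKO (difference -0.64, SE 0.10, adjusted p 0.000544), and the survival gene Mcl1 rose from a higher start in FosKO (difference -0.42). Egr3, Nr4a1 and Ier3 had differences of -0.10, -0.52 (adjusted p 0.235) and 0.07.

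Feedback regulators of ERK also went in both directions. Dusp5, a nuclear phosphatase that inactivates ERK, was 7.98, 7.87 and 7.98 at 0 h, then 11.51, 11.52 and 11.66 at 1 h in LysM-Cre, and 7.01, 6.92 and 6.94 at 0 h, then 9.47, 9.31 and 9.40 at 1 h in FosKO. FosKO libraries were lower at both times, and the gap widened from -0.99 to -2.17 (difference -1.18, SE 0.10, adjusted p 2.87e-07). Dusp1, which inactivates p38 and JNK, differed by -0.28 (adjusted p 0.00535). Dusp6, a cytoplasmic ERK phosphatase, fell after LPS in both genotypes, by 1.23 in LysM-Cre but 0.69 in FosKO (difference 0.54, adjusted p 0.00196). With these 3 calls among 13 genes tested, the list's median was 0.04, and Dusp2, Dusp4, Spry2 and Spred1 had differences of 0.03, 0.08, -0.13 and -0.09.

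Outside that list, Dusp7, another ERK phosphatase, moved in opposite directions. It rose from 9.67, 9.67 and 9.60 to 10.24, 10.32 and 10.42 in the LysM-Cre libraries and fell from 10.61, 10.51 and 10.54 to 10.10, 10.30 and 10.29 in FosKO. FosKO was higher in every library at 0 h, and the groups overlapped at 1 h (difference -0.999, SE 0.07, adjusted p 6.02e-09). Errfi1, an inhibitor of the EGF receptor that is induced by ERK signalling, rose from 8.78, 8.73 and 8.80 to 12.91, 13.02 and 13.05 in the LysM-Cre libraries, and in FosKO from 8.46, 8.50 and 8.43 to 11.58, 11.52 and 11.52, which is 18.6-fold against 8.44-fold (difference -1.14, adjusted p 8.23e-07). The promoter of Dusp5 (chr19:53529033-53529112, plus strand) is shown because it holds 2 adjoining CArG boxes, the letters SRF binds, here in capitals. CArG boxes were present in 4 of 53 promoters of genes with a positive difference (7.55%) and in 2 of 78 with a negative difference (2.56%). They occur in 1.45% of tested promoters.
Dusp5: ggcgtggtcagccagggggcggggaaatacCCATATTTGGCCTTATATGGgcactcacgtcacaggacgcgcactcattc

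In the AP-1 family 4 of 17 genes were called, and the median difference was 0.01. Atf3, a stress-induced repressor, rose from 13.13, 13.13 and 13.11 to 13.45, 13.43 and 13.39 in the LysM-Cre libraries, and in FosKO from 13.30, 13.38 and 13.33 to 14.13, 14.17 and 14.13 (difference 0.51, SE 0.05, adjusted p 1.62e-06). Between 0 h and 1 h Jun was not called as changed in LysM-Cre (-0.10) and rose in FosKO by 0.34 (difference 0.44, adjusted p 9.59e-05). At 0.5 h the Jun means were 12.61 in LysM-Cre and 12.80 in FosKO, above those of 11.39 and 11.96 at 1 h. Jdp2, a repressor that dimerises with JUN, differed by -0.61 (adjusted p 0.0039) and Atf4, the effector of the integrated stress response, by -0.25 (adjusted p 0.0116). Both genotypes induced Jdp2, by 2.49 in LysM-Cre and 1.87 in FosKO.

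The FOS relatives were not called in the difference. In FosKO the Fosl1 means at 0 h and 1 h were 3.61 and 4.31, below 4.52 and 5.95 in LysM-Cre. Those of Fosl2 were 9.94 and 10.66, below 10.43 and 11.20. Fosb had a lower mean in FosKO at 0 h and a higher one at 1 h. Fosl1 rose 2.71-fold in LysM-Cre and 1.62-fold in FosKO (difference -0.74, adjusted p 0.0752), Fosb differed by 0.52 with a wide interval (-0.30 to 1.34), Fosl2 by -0.04 and Junb by -0.14. The AP-1 letters TGANTCA were searched on both strands in the same promoter windows. They were present in 3 of 53 promoters of genes with a positive difference (5.66%), in 7 of 78 with a negative difference (8.97%) and in 6.40% of tested promoters. One of the 7 is Olr1, the lectin-like receptor for oxidised low-density lipoprotein, shown on the minus strand at chr6:129507189-129507255 as a gene among the 15 largest negative differences, with the match in capitals.
Olr1: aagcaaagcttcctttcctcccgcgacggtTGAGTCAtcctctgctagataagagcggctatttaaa

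The anti-inflammatory mediators gave 3 negative calls of 13 tested and no positive one, with a median of -0.12. Il10 was 5.78, 6.13 and 6.04 before LPS and 8.17, 8.14 and 8.43 at 1 h in LysM-Cre, and 5.60, 5.84 and 5.73 at 0 h, then 6.95, 6.82 and 6.88 at 1 h in FosKO. The groups overlapped at 0 h and were separated by more than 1 log2 unit at 1 h. The rise was 4.80-fold in LysM-Cre and 2.23-fold in FosKO (difference -1.11, SE 0.19, adjusted p 0.00222). In the libraries with high 18S alone the difference was -1.06 and was not called (adjusted p 0.0821).

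Cish, an inhibitor of STAT5 signalling, crossed. It was higher in FosKO at 0 h (0.31, adjusted p 0.0404) and lower at 1 h (-0.60), after a rise of 6.45-fold in LysM-Cre and 3.44-fold in FosKO (difference -0.91, adjusted p 0.00291). Bcl3, an atypical IkB protein, did the same, with gaps of 0.38 and -0.44 and a difference of -0.82 (adjusted p 5.24e-05). Socs3, the inhibitor of STAT3 signalling, differed by -0.19, and the IL-1 receptor antagonist Il1rn differed by 0.14.

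Growth factors and chemokines with a call were all lower in their FosKO response. Pgf, placental growth factor and a relative of VEGF, had the largest negative difference of all. It was 3.59, 3.39 and 3.77 at 0 h, then 5.80, 5.88 and 6.00 at 1 h in LysM-Cre, and 3.26, 3.24 and 3.50 at 0 h, then 4.01, 4.13 and 4.46 at 1 h in FosKO (difference -1.44, SE 0.20, adjusted p 0.000219). It rose 4.95-fold in LysM-Cre and 1.83-fold in FosKO, and the groups were apart only at 1 h. Of the 9 EGF-type and other growth factors tested, Hbegf and Csf1 were called. Hbegf, a ligand of the EGF receptor, differed by -0.62 (adjusted p 0.0102, but 0.0594 when only the 12 libraries compared were fitted). Csf1, the macrophage growth factor, started 1.1998 higher in FosKO and ended 0.71 higher (difference -0.49, adjusted p 0.00204). Areg and Vegfa differed by 0.04 and 0.09.

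Cxcl3, a ligand of the neutrophil receptor CXCR2, was the 1 call among 4 such chemokines, where 1.22% of all genes were called. It was 4.87, 4.90 and 4.68 at 0 h, then 7.54, 7.46 and 7.47 at 1 h in LysM-Cre, and 5.05, 5.03 and 5.24 at 0 h, then 6.71, 6.73 and 6.95 at 1 h in FosKO (difference -0.98, SE 0.13, adjusted p 0.000191). The order of the genotypes was thus reversed between 0 h and 1 h. Its relative Cxcl2 rose 18.9-fold and 19.2-fold (difference 0.02, interval -0.17 to 0.21), and Cxcl1 differed by -0.49 (adjusted p 0.525).

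Of 11 CC chemokines, 2 were called. Ccl22, a ligand of CCR4 on regulatory and TH2 cells, rose from 6.31, 6.27 and 6.41 to 8.96, 9.03 and 8.97 in the LysM-Cre libraries, and in FosKO from 6.30, 6.19 and 6.49 to 7.71, 7.80 and 8.19, which is 6.32-fold against 2.98-fold (difference -1.09, SE 0.15, adjusted p 0.000194). Ccl7, a monocyte chemoattractant, differed by -0.64 (adjusted p 0.0115, and 0.0501 with the 12 libraries alone) and stayed higher in FosKO at both times. Ccl3, Ccl4 and Ccl2 had differences of 0.25, 0.24 and -0.28, and Ccl5 of -0.64 with an interval of -1.25 to -0.03 and an adjusted p of 0.591.

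**Figure D3:**
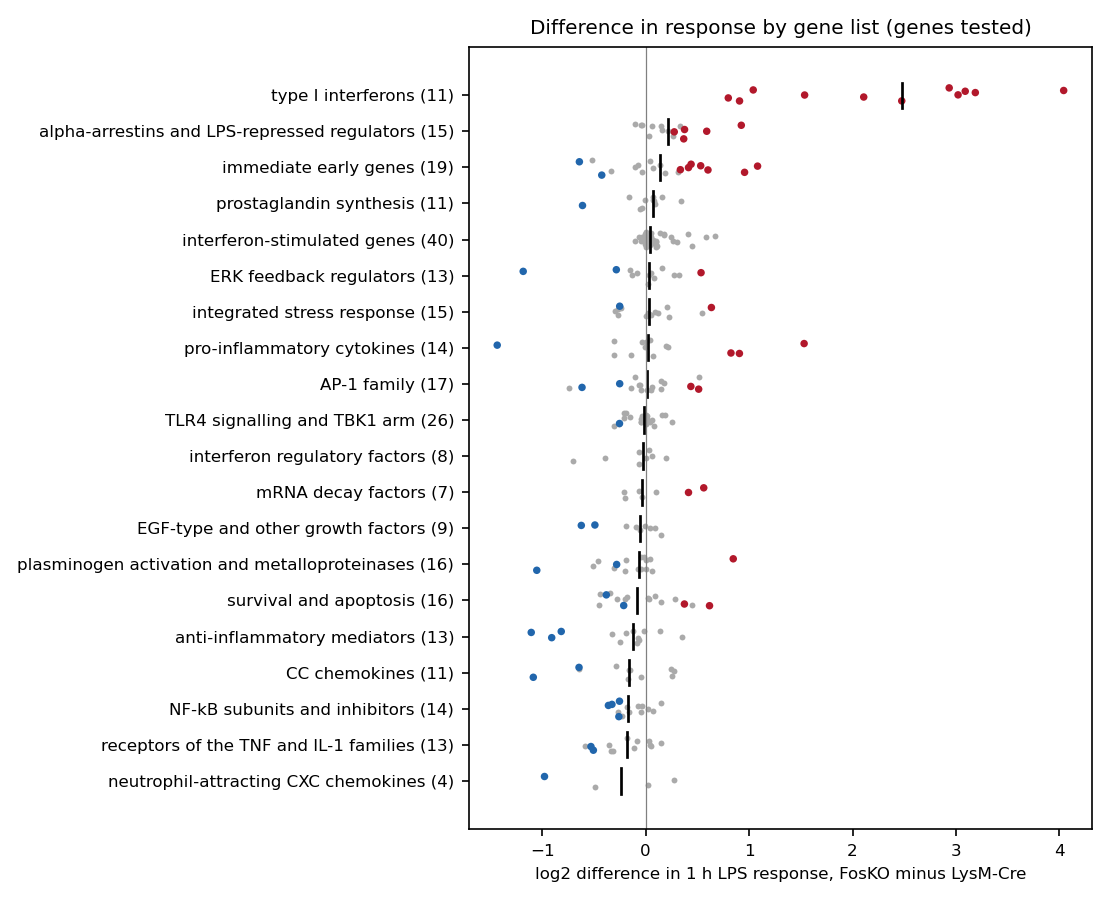
Log2 difference in the 1 h response (horizontal axis) of each tested member of 20 gene lists, with called genes in red (positive) or blue (negative), genes not called in grey and the list's median as a black bar. The type I interferons lie to the right, in part through the filter on low values, and the other lists have medians between -0.24 and 0.22.

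Several other genes of the cell surface and the extracellular space were among the 15 largest negative differences. Olr1 went from 4.81, 4.77 and 4.74 to 8.997, 8.98 and 8.87 in the LysM-Cre libraries, and in FosKO from 4.76, 5.06 and 4.80 to 7.74, 7.75 and 7.90 (18.1-fold against 7.59-fold, difference -1.26, adjusted p 2.09e-05). Adora2b, an adenosine receptor, went from 6.41, 6.23 and 6.32 to 8.03, 8.03 and 8.14 in the LysM-Cre libraries, and in FosKO from 5.91, 5.72 and 5.81 to 6.43, 6.18 and 6.33 (3.36-fold against 1.42-fold, difference -1.25, adjusted p 1.03e-06). At 1 h no FosKO library reached any LysM-Cre library for either gene. Plat, the tissue plasminogen activator, rose 17.5-fold and 8.45-fold (difference -1.05, adjusted p 0.000476). Cav1, the main protein of caveolae, and Tnfsf14, the TNF family ligand LIGHT, were lower in FosKO before LPS by 0.95 and 0.70 in log2 units and had differences of -0.97 and -0.84. The secreted protein gene Oaf differed by -1.05.

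In the wider plasminogen and metalloproteinase list, 3 of 16 genes were called. Besides Plat these were Plaur, the urokinase receptor, at -0.28 and Serpinb2, the plasminogen activator inhibitor PAI-2, at 0.85. The call of Plaur was lost without any of 4 libraries, replicate 3 of untreated LysM-Cre and, at 1 h, replicates 2 and 3 of LysM-Cre and 2 of FosKO (-0.26 to -0.24, adjusted p 0.0539 to 0.0612), and that of Serpinb2 without any 1 of 8 libraries (0.74 to 0.85, adjusted p 0.0699 to 0.111). Urokinase itself, Plau, differed by -0.31 (adjusted p 0.0857).

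Some called receptors that couple to G proteins were grouped here after their values were seen. No fixed list of such receptors was counted or tested. The adenosine receptor above, Gpr84, Gpr132 and the nucleotide receptor gene P2ry2 had negative differences of -1.25, -0.63, -0.48 and -0.24. Ptger4, a receptor for prostaglandin E2, and C5ar1, the receptor for complement C5a, had positive ones of 0.69 and 0.32. Gpr84, a receptor for medium-chain fatty acids, had group means of 9.09 and 11.53 in LysM-Cre and 9.77 and 11.58 in FosKO, so its negative difference came from a higher start in FosKO. The P2ry2 call was lost without any 1 of 9 libraries (adjusted p 0.0642 to 0.152). Of the regulators of G protein signalling, Rgs2, Rgs3 and Rgs1 had differences of 0.59, 0.59 and 0.55, the last 2 named after their values were seen, and Rgs18 was not called (0.04, adjusted p 0.967).

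NF-kB subunits and inhibitors had 4 negative calls of 14 tested and a median of -0.17. Tnip1, a partner of A20, differed by -0.36 (not called with the 12 libraries alone, adjusted p 0.0501), Relb by -0.33, Nfkbia, which encodes IkB alpha, by -0.26 and Nfkbib, IkB beta, by -0.25. All 4 were higher in FosKO at 0 h, by 0.28 to 0.35, and overlapped with LysM-Cre at 1 h. Nfkbia, for instance, was 11.77, 11.76 and 11.73 at 0 h, then 14.68, 14.69 and 14.70 at 1 h in LysM-Cre, and 11.96, 12.03 and 12.12 and then 14.68, 14.72 and 14.75 in FosKO. The calls of Relb, Nfkbia and Nfkbib were lost without any 1 of 7 or 8 libraries (adjusted p 0.0525 to 0.133 across the 3 genes). Nfkb1 and Tnfaip3, which encodes A20, differed by -0.03 and -0.23 (adjusted p 0.281).

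Cd83, a maturation marker, and Icam1, an adhesion molecule, were the 2 calls among 13 receptors and related genes, at -0.50 (adjusted p 0.00052) and -0.53 (adjusted p 0.0277), and both started higher in FosKO. Cd83 rose 8.87-fold in LysM-Cre and 6.25-fold in FosKO. The Icam1 call was lost without any 1 of 8 libraries (-0.53 to -0.43, adjusted p 0.0589 to 0.0844). In prostaglandin synthesis, Ptges, the terminal prostaglandin E synthase, was the 1 call of 11, beside 1.22% of all genes (-0.62, adjusted p 0.0134), lost without replicate 3 of untreated FosKO (-0.55, adjusted p 0.0518), whereas Ptgs2, the inducible cyclooxygenase, was not called (0.34, adjusted p 0.718).

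A list of alpha-arrestins and of regulators chosen as LPS-repressed gave 5 positive calls of 15 and no negative one, with a median of 0.22. In LysM-Cre 8 of the 15 fell and 4 rose, and of the 5 called only Txnip and Rgs2 fell there. Txnip, an alpha-arrestin that limits glucose uptake, fell from 12.66, 12.62 and 12.59 to 10.67, 10.66 and 10.51 in the LysM-Cre libraries, and in FosKO from 12.26, 12.27 and 12.30 to 10.59, 10.66 and 10.64 (difference 0.37, SE 0.07, adjusted p 0.0099). It was lower in FosKO at the start, and the groups overlapped at 1 h. Rgs2, a brake on G protein signalling, fell from 12.59, 12.61 and 12.62 to 11.68, 11.78 and 11.81 in the LysM-Cre libraries, and in FosKO only from 12.78, 12.78 and 12.80 to 12.51, 12.48 and 12.59 (adjusted p 5.13e-07).

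Arrdc4, another alpha-arrestin, rose, 1.18-fold in LysM-Cre and 2.23-fold in FosKO (difference 0.92, adjusted p 0.000116). The transcription factor gene Klf4 rose in LysM-Cre (0.23), and Bcl6, another, rose in FosKO (0.33) and was not called in LysM-Cre (0.05). Their calls (0.38 and 0.28) were lost without any 1 of 10 and 9 libraries (adjusted p 0.0573 to 0.111 and 0.0525 to 0.129). Arrdc3 fell by 2.05 in LysM-Cre and 1.78 in FosKO and was not called (adjusted p 0.158).

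Among factors that destabilise cytokine mRNA, 2 of 7 were called. Zfp36l2 fell less in FosKO (by 0.31 against 0.88, difference 0.56, adjusted p 9.59e-05), and Zfp36, which encodes tristetraprolin, rose more, as given above. Survival and apoptosis genes had 2 calls in each direction of 16, namely Phlda1 at 0.62 and Bbc3, the pro-apoptotic gene PUMA, at 0.38 against Gadd45b at -0.38 and Bcl2l1, the anti-apoptotic gene BCL-XL, at -0.21. The Bbc3 call was lost without LysM-Cre replicate 1, FosKO replicate 2 or FosKO replicate 3 at 1 h (0.32 to 0.37, adjusted p 0.0503 to 0.0553). That of Gadd45b was lost without the third LysM-Cre replicate at either time or the third untreated FosKO replicate (-0.36 to -0.34, adjusted p 0.0511 to 0.0561).

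In the integrated stress response, Ppp1r15a, the GADD34 subunit that reverses eIF2 alpha phosphorylation, rose 5.57-fold in LysM-Cre and 8.65-fold in FosKO (difference 0.64, adjusted p 0.000124). Atf4 and Ppp1r15a were the 2 calls of 15. Edn1, which encodes the vasoconstrictor endothelin 1, rose from 5.58, 5.34 and 5.27 to 7.86, 7.96 and 7.73 in the LysM-Cre libraries, and in FosKO from 5.43, 5.77 and 5.67 to 8.99, 9.14 and 9.34 (difference 1.08, SE 0.17, adjusted p 0.00117). The groups overlapped at 0 h and were separate at 1 h.

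Other genes were named after their values were seen. Ch25h, which makes 25-hydroxycholesterol, had a difference of 0.87, Plk2 of 0.53, the ubiquitin ligase gene Mylip of 0.34 and the sterol sensor partner Insig1 of 0.22. Kdm6b, a histone H3K27 demethylase, rose 24.2-fold in LysM-Cre and 14.2-fold in FosKO (difference -0.77, adjusted p 0.00029). Klf10 rose in LysM-Cre (0.24) and fell in FosKO (-0.59), a difference of -0.83 (adjusted p 1.8e-06), from nearly equal means of 9.39 and 9.43 at 0 h. Cdc42ep4, an effector of the GTPase CDC42, and Mapk6, an atypical MAP kinase, had differences of -0.72 and -0.34 with small errors (SE 0.05 and 0.03). Pfkfb3, a regulator of glycolysis, rose by 0.53 in LysM-Cre and was not called as changed in FosKO (-0.14), starting 0.84 higher there.

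The same difference can be read as a gap between genotypes that changes with LPS. At 0 h 35.4% of tested genes differed between the genotypes, and at 1 h 33.9% did. Of the 101 genes with a negative difference, 53 were higher in FosKO at 0 h, 10 were lower and 38 were not called. At 1 h 12 were higher, 64 lower and 25 not called. In 16 of them, among these Bcl3, Cish and Cxcl3, the gap was called in opposite directions at the 2 times. Of the 68 with a positive difference, 33 had no called gap at 0 h and were higher at 1 h, as Ifnb1, Ifna2, Il6 and Egr1 were, and 8 went from lower to higher. The difference contains the 0 h gap by construction, so the shares at 0 h are a description of the called genes.

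**Figure D4:**
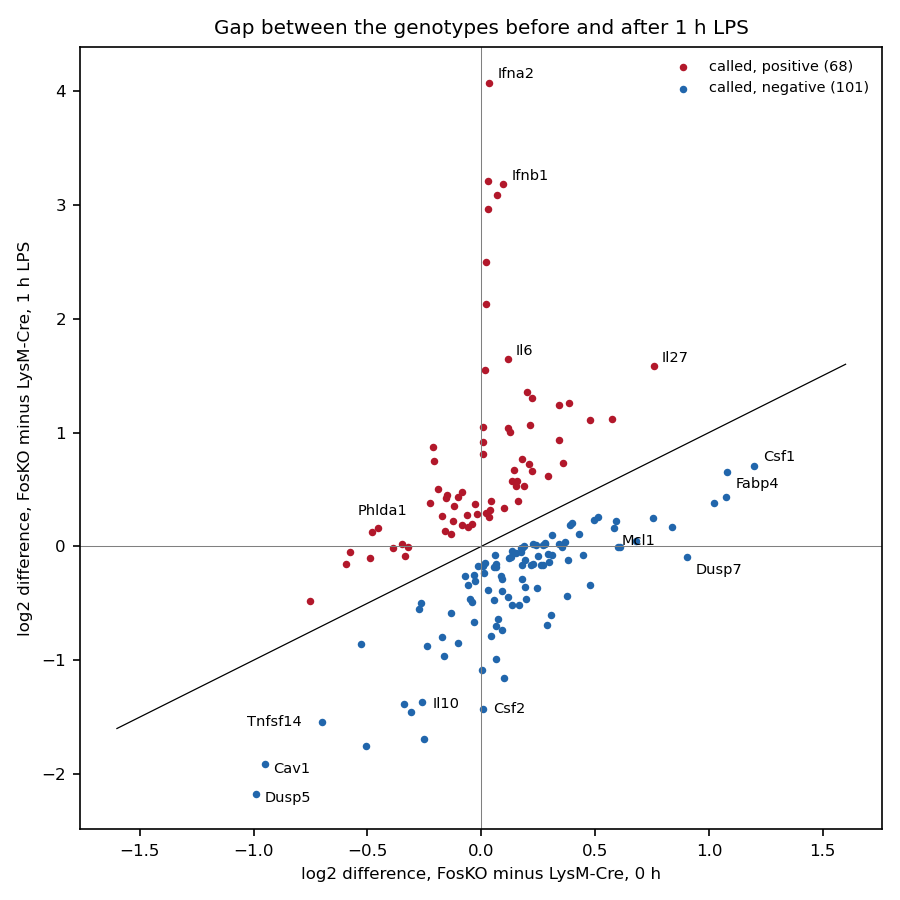
Log2 difference between FosKO and LysM-Cre at 1 h of LPS (vertical axis) against that at 0 h (horizontal axis) for the 169 called genes, positive in red and negative in blue, with the line of an equal gap in black. Ifna2 and Ifnb1 have almost no gap at 0 h and gaps of 4.07 and 3.18 at 1 h, Dusp5 moves from -0.99 to -2.17, and Csf1 keeps a positive gap, 0.71 at 1 h.

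The same difference taken at 0.5 h and 2 h uses the same 0 h libraries, so the 3 values of a gene are set side by side and not tested against each other. At 0.5 h 16 genes (0.115%) were called and at 2 h 2081 (15%). Ifnb1 differed by 1.59, 3.09 and 2.91 at 0.5, 1 and 2 h. The alpha interferons had small values at 0.5 h, with Ifna2 at 0.30, 4.04 and 3.90 and Ifna5 at -0.03, 3.02 and 4.08. Csf2 (-1.08, -1.43 and -1.32) and Errfi1 (-0.91, -1.14 and -0.97) had a negative value at every time, each called by limma.

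Some genes had a difference at 1 h that was small or opposite at another time. Dusp5 was at -0.87, -1.18 and 0.29, the last not called (adjusted p 0.0579). Klf2 was at 0.31, 0.96 and 0.15, and only the middle value was called. Cish was at -0.05, -0.91 and -0.29, again called at 1 h alone. Myc was at -0.31, -0.64 and -0.08. In contrast Ccl22 (-0.07, -1.09 and -1.86), Cxcl3 (-0.10, -0.98 and -1.49) and Ptges (0.17, -0.62 and -1.47) had their largest value at 2 h, and so did Klf4 (0.02, 0.38 and 1.65) and Phlda1 (-0.11, 0.62 and 1.28). Kdm6b had its largest value at 0.5 h (-0.92, -0.77 and -0.41).

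**Figure D5:**
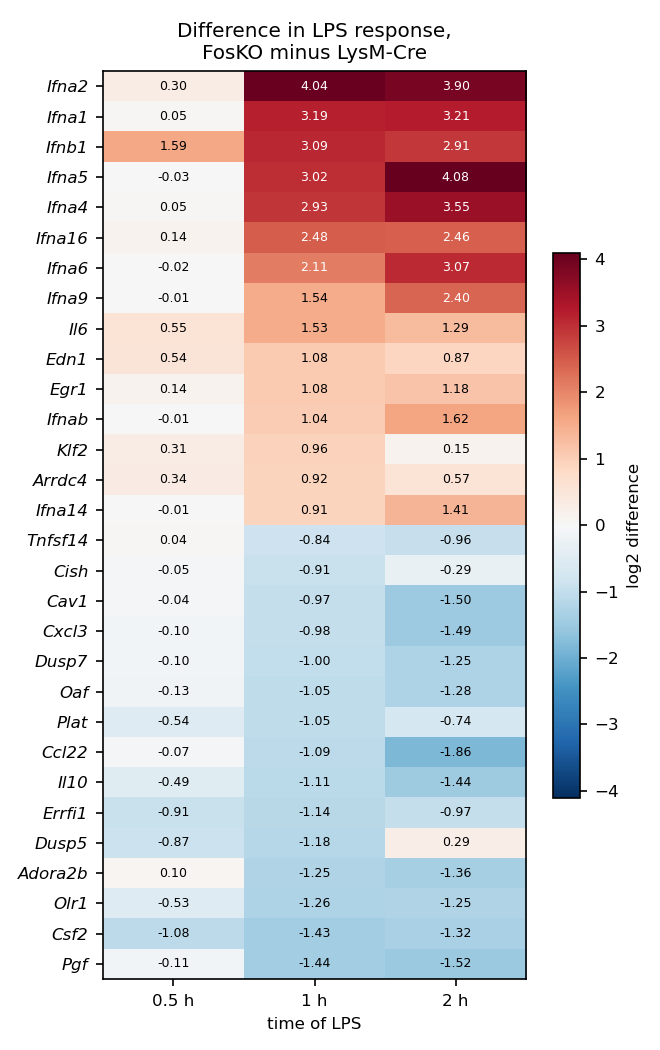
Log2 difference in the LPS response, FosKO minus LysM-Cre, at 0.5, 1 and 2 h (columns) for the 15 genes with the largest positive and the 15 with the largest negative difference at 1 h (rows, protein-coding genes only), with the value in each cell and its size as colour. Ifnb1 is already at 1.59 at 0.5 h. The alpha interferons among these rows reach at least 0.91 at 1 h and 1.41 at 2 h, and Dusp5 turns from -1.18 at 1 h to 0.29 at 2 h.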

How the data were processed

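Libraries were strand-specific and sequenced from a single end. Per the submitters' processing notes, the authors used STAR 2.5.2a, RSEM 1.2.31 and DESeq2 1.16.1 with GRCm38, and the methods name RefSeq genes, although the table carries Ensembl identifiers. The deposited values are normalised log2 values, 1 per gene and library, from -2.22 to 19.39. They resemble a regularised log, so differences in genes with few reads may be understated. The table used here carries no read counts, so library depth is not known from it and no counting interval was computed.

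Genes were tested if the linear value (2 to the deposited value) reached 5 or more in 3 or more libraries. All 24 libraries entered 1 limma fit (limma 3.58.1, R 4.3.3) with 8 group means, 16 residual degrees of freedom and a variance trend, and p-values were adjusted over 13901 genes by Benjamini-Hochberg. The fit was tested on simulated data.

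Named genes are the 15 called protein-coding genes with the largest difference in each direction, called members of 20 lists with up to 4 that were not called, Fos, Lyz2 and Rn18s-rs5. Others are said to be named after their values were seen. Members, lists and motifs were chosen with earlier results of these data known. Positions are from GENCODE vM21, in which 99.7% of identifiers were found. RefSeq promoters (GRCm38.p6) were matched by symbol for 9539 of 13887 tested symbols. Coding sequences were taken as the longest open reading frame of GENCODE transcripts and aligned with Biopython 1.88. Alternatives covered filters, scalings, a block, the 18S content, the variance model and leaving out each library. Some genes are not reported here.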

Additional observations from a re-analysis of the deposited data

Results flagged for a closer look

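The response to 1 h of LPS differed between the genotypes by the limma test of that difference itself for 169 genes, of which the 15 protein-coding genes with the largest difference in each direction are listed here with their log2 difference, FosKO response minus LysM-Cre response. The positive ones were the interferons and Il6, Edn1, Egr1, Klf2 and Arrdc4: Ifna2 (4.04), Ifna1 (3.19), Ifnb1 (3.09), Ifna5 (3.02), Ifna4 (2.93), Ifna16 (2.48), Ifna6 (2.11), Ifna9 (1.54), Il6 (1.53), Edn1 (1.08), Egr1 (1.08), Ifnab (1.04), Klf2 (0.96), Arrdc4 (0.92) and Ifna14 (0.91). The negative ones were Pgf (-1.44), Csf2 (-1.43), Olr1 (-1.26), Adora2b (-1.25), Dusp5 (-1.18), Errfi1 (-1.14), Il10 (-1.11), Ccl22 (-1.09), Plat (-1.05), Oaf (-1.05), Dusp7 (-0.999), Cxcl3 (-0.98), Cav1 (-0.97), Cish (-0.91) and Tnfsf14 (-0.84). Ifna16, Ifna6, Ifna9, Ifnab and Ifna14 passed the filter on low values only through FosKO after LPS, so that their positive difference was largely fixed by the filter. All 30 kept their sign within the libraries with high and with low 18S. They were picked from these same libraries, so that agreement was largely fixed by the selection.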

How the results depend on the processing

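The main counts were 169 genes called, 68 positive and 101 negative, with 23 at least 2-fold. With the 12 libraries alone the counts were 112 called and 60 negative, and with only the libraries of high 18S they were 93 called, 61 positive and 32 negative. Array weights gave 273 called, 112 positive and 161 negative. Leaving out each library in turn gave 125 to 200 called, 55 to 80 positive and 67 to 124 negative, the lowest negative count without replicate 3 of LysM-Cre at 1 h. The cause of these shifts was not tested. With the replicate number as a replicate block 201 genes were called, and with the block within genotype 242. The numbers are not stated to pair samples. In deviations from the group means, same-numbered 0 h and 1 h libraries had correlations of 0.04, 0.09 and 0.04 in LysM-Cre and 0.24, 0.08 and 0.15 in FosKO, and same-numbered LysM-Cre and FosKO libraries had -0.001, 0.04 and 0.11 at 0 h and -0.53, -0.21 and -0.27 at 1 h. Each of these 1 h pairs sets a library of high 18S against one of low 18S, and the 1 h pairs across genotypes with the same 18S level had 0.34 to 0.41. No filter gave 147 called, a filter at 20 gave 168, quantile normalisation 197, TMM 167, a pseudocount of 1 gave 169, an 18S term 173 and no variance trend 149. No gene called in the main analysis changed sign under any of the 24 alternatives in which it was tested. The alternatives reuse the libraries that gave the calls, so a kept sign is only a description. Of 103 called genes named, 59 kept the call wherever they were tested, 56 of them in all 24. The other 3, Ifna9, Ifna11 and Ifnab, were not tested with the filter at 20. Of the rest 14 lost it only with the libraries of high 18S alone and 21 lost it without a single library. Dusp1, Btg2 and Map2k3 were among those that lost it under quantile normalisation. The deposited values carry no counts, so the depth behind a low value is unknown.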
